A study of Mus musculus with 4 samples.

Results

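The genes of MHC class II antigen presentation were followed in mouse back skin that carries an IKKbeta transgene, K5-IKKbeta, and in wild type back skin. MHC class II molecules are surface proteins that show peptides, taken from proteins digested in endosomes, to CD4 T cells. An alpha and a beta chain pair in the endoplasmic reticulum with the invariant chain, which fills the peptide groove until proteases of the endosome cut it away. The factor DM then exchanges the remaining fragment for peptides, and DO restrains DM. In skin these molecules are known mainly from Langerhans cells, dermal dendritic cells and macrophages, and interferon gamma can induce them in other cells, keratinocytes included, through the transactivator CIITA.

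The members were all probe sets whose only gene symbol in the platform annotation was H2-Aa, H2-Ab1, H2-Eb1, H2-DMa, H2-DMb1, H2-Oa, H2-Ob, Cd74, Ciita or Ctss. They were 17 of the 45101 probe sets on the array and covered 9 of the 10 genes, of 18194 genes in all. H2-DMb1 has no value, because the probe sets that carry its symbol also carry that of its neighbour H2-DMb2.

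RNA was measured on 4 Affymetrix expression arrays, 2 of wild type mice, labelled control, and 2 of K5-IKKbeta mice, in which regulatory elements of keratin K5 drive the gene of IKKbeta, the kinase that activates NF-kB. These elements are known to act mainly in the basal layer of epidermis and follicle. The mice were males of 32 days from a C57BL6 X DBA2 background, and each array held pooled RNA of 3 mice of 1 genotype. The MHC haplotype of the mice is not given in the sources used here. Replicates were thus separate pools, not single animals.

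Levels are deposited RMA values on the log2 scale, and a positive log2 fold change means more signal in K5-IKKbeta skin. Median values of the arrays lay between 6.91 and 6.96, and the 25th percentile of an array, used here as a floor, between 5.27 and 5.38. A gene with both wild type arrays under the floor has only a bound there, and its fold, written with at least, compares the K5-IKKbeta mean with the floor. Krt5 and Krt14, keratins of basal keratinocytes, read between 13.0 and 13.8 in the 4 arrays, and the leukocyte phosphatase Ptprc between 8.27 and 10.37, so the labelled tissue carries its defining markers. Since whole skin was measured, more presenting cells and more RNA per cell cannot be told apart in any result below.

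All 17 probe sets rose in K5-IKKbeta skin (limma, adjusted p under 0.05 over all probe sets), against 10.4% of all probe sets called higher. Both K5-IKKbeta arrays also lay above both wild type arrays for 17 of 17, which held for 30.3% of all probe sets. The median log2 fold change of the 17 was 2.0, against 0.00 over all probe sets. The rise was not even. Above the floor the chains, the invariant chain, H2-DMa and Ctss rose 3.40-fold to 5.35-fold, except for a dim H2-DMa probe set at 2.42-fold. Above the floor too, H2-Oa and Ciita rose 1.49-fold to 1.69-fold, from wild type levels near it, which limits what these sizes say. Without moderation of the variances across probe sets, 0 of the 17 passed in a plain linear model on 2 residual degrees of freedom (adjusted p from 0.0588 to 0.281, with 16 of 17 at an unadjusted p under 0.05).

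**Figure D1:**
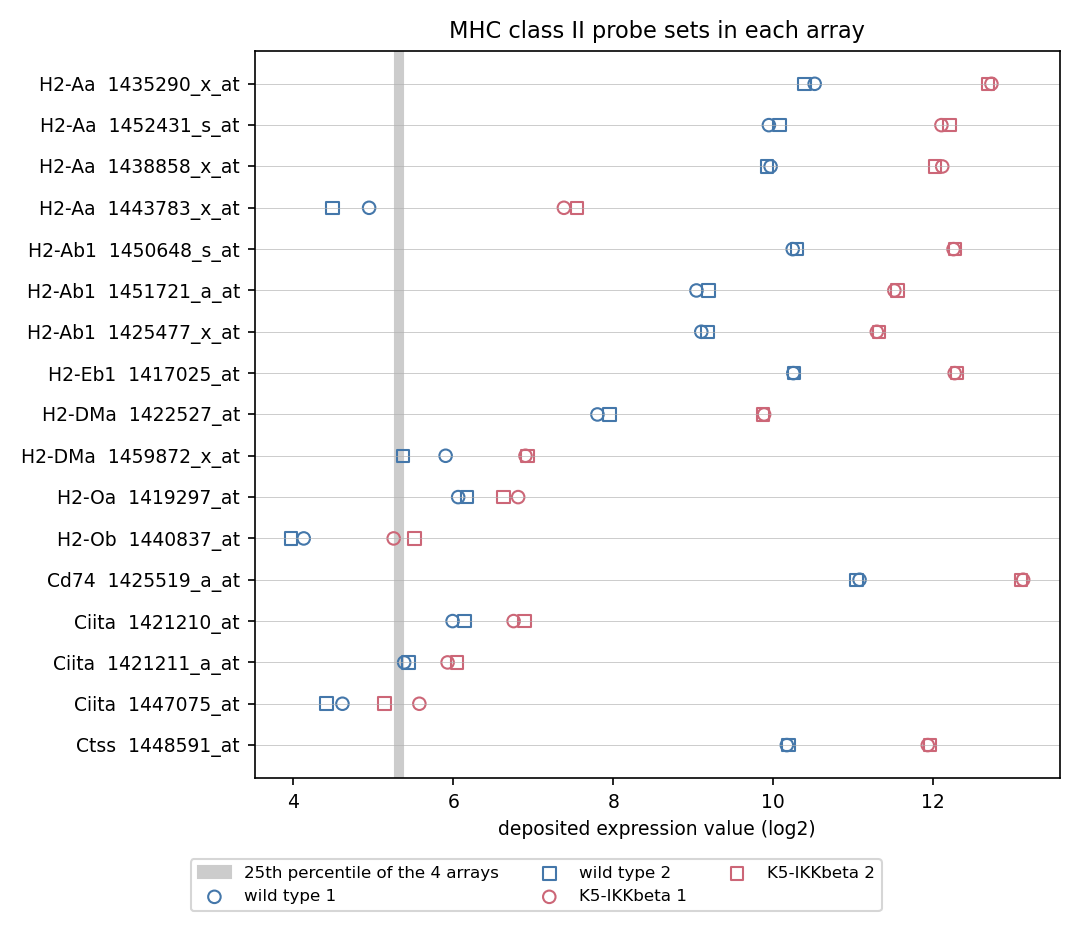
Deposited expression values (log2) of the 17 MHC class II probe sets, one row per probe set, with circles for pool 1 and squares for pool 2 of wild type (blue) and K5-IKKbeta (red). The grey band spans the 25th percentiles of the 4 arrays, 5.27 to 5.38, and in each row both red symbols lie to the right of both blue ones.

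The upstream sequence of 5 members is shown because class II promoters are known for a shared pair of elements, the X box, bound by RFX, and the Y box, bound by NF-Y, on which CIITA assembles. The sequences are the 140 bases before the annotated start site in RefSeq on GRCm38.p6, read 5′ to 3′ on the strand of the gene. Capitals mark matches to 4 motifs, searched on both strands: an X box core, a Y box (CCAAT, or ATTGG on the other strand), an interferon-stimulated response element core and an NF-kB site. H2-Aa lies at chr17:34287824-34287963 on the minus strand, H2-Eb1 at chr17:34305727-34305866, H2-Oa at chr17:34092239-34092378, H2-Ob at chr17:34238765-34238904 and Ctss at chr3:95526646-95526785, these on the plus strand.
H2-Aa: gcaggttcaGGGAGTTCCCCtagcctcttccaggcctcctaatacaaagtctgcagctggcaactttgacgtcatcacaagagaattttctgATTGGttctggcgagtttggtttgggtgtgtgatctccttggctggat
H2-Eb1: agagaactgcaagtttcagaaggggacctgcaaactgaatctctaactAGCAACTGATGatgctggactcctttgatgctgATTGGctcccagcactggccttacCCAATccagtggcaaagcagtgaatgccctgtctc
H2-Oa: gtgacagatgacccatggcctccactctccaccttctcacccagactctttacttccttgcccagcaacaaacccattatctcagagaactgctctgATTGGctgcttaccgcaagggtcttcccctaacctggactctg
H2-Ob: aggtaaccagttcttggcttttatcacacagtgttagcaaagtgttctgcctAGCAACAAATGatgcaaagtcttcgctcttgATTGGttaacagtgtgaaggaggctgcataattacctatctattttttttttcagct
Ctss: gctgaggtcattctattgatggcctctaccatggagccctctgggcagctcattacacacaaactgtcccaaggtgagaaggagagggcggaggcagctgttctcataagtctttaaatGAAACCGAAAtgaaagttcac

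In H2-Eb1 and H2-Ob the X box core is followed by an inverted Y box, starting at -92 and -59 in H2-Eb1 and at -88 and -57 in H2-Ob, counted from the start site. H2-Aa and H2-Oa held an inverted Y box, starting at -48 and -43, with no match to the X box core in this window. The core was searched as a single fixed pattern, and looser forms of the X box were not searched. The missing match therefore does not show that H2-Aa or H2-Oa lacks an X box. H2-Aa also held overlapping NF-kB matches on both strands, from -131 to -121, and Ctss an interferon element core from -21 to -12. Within 250 bases before and 50 after the start, the X box core was found in 3 of 8 member promoters and in 4.18% of all 32851 promoters, and the Y box in 6 of 8 and in 37.4%. The NF-kB site was found in 1 of 8 and in 4.51%, the interferon element core in 1 of 8 and in 3.44%, and a gamma-activated site (TTCNNNGAA) in 0 of 8 and in 8.30%. The 8 entries stand for 7 genes, H2-DMb1 among them, with 2 start sites for H2-DMa. The X box letters were chosen with the promoters in view, so the X box shares are no independent comparison. A match is a description of the letters and shows no binding.

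The class II chains come first. H2-Aa codes for the alpha chain and H2-Ab1 for the beta chain of the I-A molecule, and H2-Eb1 for the beta chain of I-E. The brightest H2-Aa probe set, 1435290_x_at, read 10.52 and 10.39 in wild type and 12.73 and 12.69 in K5-IKKbeta skin. The groups lay far apart beside gaps of 0.13 and 0.04 within them, and the rise was 4.77-fold (log2 fold change 2.25, SE 0.11, limma adjusted p = 0.000116). H2-Ab1 read 10.24 and 10.30 against 12.25 and 12.28 in 1450648_s_at, a 3.99-fold rise (log2 fold change 2.0, SE 0.11, limma adjusted p = 0.000134). H2-Eb1 read 10.25 and 10.26 in wild type and 12.27 and 12.30 in K5-IKKbeta skin, with the smallest spread of the chains in wild type (SD 0.005, n = 2) and a 4.08-fold rise (log2 fold change 2.03, limma adjusted p = 0.000127). The 95% intervals of these changes overlapped: 1.99 to 2.52 for H2-Aa, 1.74 to 2.25 for H2-Ab1 and 1.78 to 2.28 for H2-Eb1. The differences between the 3 chains were not tested, so the chains are not ordered here by their rise.

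The other probe sets of the chains rose too. For H2-Aa, 1452431_s_at and 1438858_x_at rose 4.41-fold and 4.36-fold, close to the brightest. The fourth, 1443783_x_at, was below the floor in both wild type arrays (4.95 and 4.49) and read 7.38 and 7.55 in K5-IKKbeta skin, which is at least 4.35-fold higher. Its fitted log2 fold change of 2.75 rests on wild type values under the floor. For H2-Ab1, 1451721_a_at went from 9.04 and 9.19 to 11.51 and 11.56, a 5.35-fold rise, and 1425477_x_at rose 4.50-fold. The 3 probe sets of H2-Ab1 thus gave rises from 3.99-fold to 5.35-fold. Intervals of the log2 fold change overlapped (1.74 to 2.25 in 1450648_s_at and 2.15 to 2.69 in 1451721_a_at), and the difference was not tested. In the K5-IKKbeta arrays 1451721_a_at stood 2.40 and 2.44 above its wild type mean, and 1450648_s_at 1.98 and 2.01. Every probe set of H2-Aa and H2-Ab1 has an ending that marks probes shared between transcripts (_s_at, _x_at or _a_at), and for _s_at and _x_at the part of each gene in the signal is uncertain. H2-Eb1 has a single probe set without such an ending, and it rose 4.08-fold.

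Cd74 codes for the invariant chain, which escorts new class II molecules to the endosome. It read 11.08 and 11.04 in wild type and 13.13 and 13.10 in K5-IKKbeta skin. The 4.14-fold rise (log2 fold change 2.05, SE 0.10, limma adjusted p = 0.000124) had an interval of 1.80 to 2.30, inside the range of the chains. Ctss codes for cathepsin S, the protease that makes the last cut of the invariant chain in dendritic cells, macrophages and B cells. It read 10.17 and 10.19 in wild type and 11.93 and 11.96 in K5-IKKbeta skin, a 3.40-fold rise (log2 fold change 1.77, SE 0.10, limma adjusted p = 0.000209). Its interval, 1.51 to 2.02, overlapped those of the brightest probe set of each chain, and lay below those of the H2-Ab1 probe set 1451721_a_at (2.15 to 2.69) and the dim H2-Aa probe set 1443783_x_at (2.34 to 3.16).

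H2-DMa codes for the alpha chain of DM, the peptide exchange factor. Its brighter probe set, 1422527_at, read 7.80 and 7.95 in wild type and 9.89 and 9.87 in K5-IKKbeta skin, a 4.01-fold rise (log2 fold change 2.0, SE 0.11, limma adjusted p = 0.000169). The dimmer, 1459872_x_at, went from 5.90 and 5.37 to 6.90 and 6.93, a 2.42-fold rise (log2 fold change 1.28, interval 0.84 to 1.71). Its wild type arrays lay 0.53 apart, the widest gap within a group among the 17 probe sets, and the interval lay below that of the brighter probe set (1.73 to 2.27). The 2 probe sets of H2-DMa thus differ in the size of the rise and not in its direction.

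DO, the inhibitor of DM, is known from B cells, thymic epithelium and some dendritic cells. H2-Oa, its alpha chain, read 6.06 and 6.17 in wild type and 6.81 and 6.63 in K5-IKKbeta skin. The groups did not overlap, and the rise was 1.52-fold (log2 fold change 0.60, SE 0.12, limma adjusted p = 0.0184 over all probe sets). Its interval of 0.32 to 0.89 lay wholly below those of the chains. Leaving out wild type 1 raised the adjusted p to 0.154, leaving out wild type 2 to 0.108 and leaving out K5-IKKbeta 1 to 0.0529. H2-Ob, the beta chain, was below the floor in both wild type arrays (4.13 and 3.97) and read 5.25 and 5.52 in K5-IKKbeta skin, with 1 of these arrays still below it. The fitted log2 fold change was 1.33 (limma adjusted p = 0.0015), but against the floor the rise was at least 1.03-fold, so its size is only bounded. A brighter probe set, 1422201_at, carries the symbols of both H2-Ob and Gm20506 and is no member. Its groups overlapped, with a log2 fold change of 0.10 (limma adjusted p = 0.769), so the rise of H2-Ob rests on the dim probe set alone.

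Ciita codes for the transactivator that is required for most class II expression. Its brightest probe set, 1421210_at, read 5.99 and 6.14 in wild type and 6.75 and 6.89 in K5-IKKbeta skin, and rose 1.69-fold (log2 fold change 0.76, SE 0.12, limma adjusted p = 0.00761). The second, 1421211_a_at, went from 5.39 and 5.44 to 5.93 and 6.05, a 1.49-fold rise (log2 fold change 0.58, limma adjusted p = 0.0162). The third, 1447075_at, was below the floor in both wild type arrays (4.61 and 4.42) and in 1 of the K5-IKKbeta arrays (5.58 and 5.14), which leaves a rise of at least 1.01-fold. The 3 probe sets gave fitted log2 fold changes of 0.58 to 0.84, with intervals that overlapped one another. With wild type 1 left out the fitted changes were 0.55 to 0.94, and with wild type 2 left out 0.60 to 0.83. The calls of these probe sets were lost in both fits. A fit with 1 wild type array takes its spread from the K5-IKKbeta pair alone. A call lost in such a fit, here or elsewhere, does not by itself set a gene apart.

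**Figure D2:**
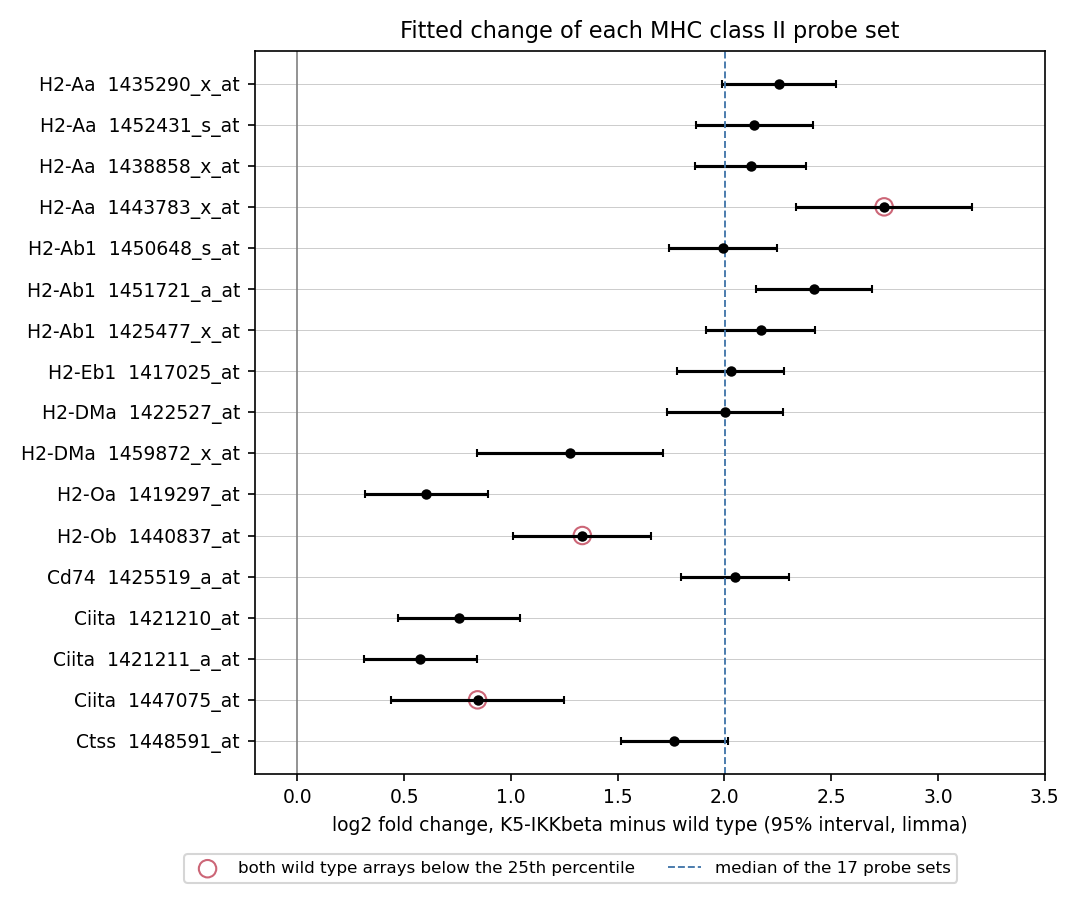
Fitted log2 fold change of each of the 17 probe sets, K5-IKKbeta minus wild type, with 95% intervals from limma; the dashed line is their median of 2.0. Red rings mark the 3 probe sets whose wild type arrays both lay below the floor, and the intervals of H2-Oa and Ciita lie below those of the class II chains.

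Set against its own wild type mean, the mean of H2-Aa, H2-Ab1 and H2-Eb1 was 2.09 higher in K5-IKKbeta array 1 and 2.09 in array 2. Cd74 followed it most closely, 2.06 and 2.04 higher. H2-DMa was 2.01 and 2.0 higher, and Ctss 1.75 and 1.78 higher. Ciita stood 0.69 and 0.82 above its wild type mean, 36.1% of the rise of the chains on the log2 scale. H2-Oa stood 0.70 and 0.51 above its own, or 28.8%. The wild type means of Ciita and H2-Oa, 6.07 and 6.11, lay near the floor, which limits what these percentages say. Both K5-IKKbeta pools gave nearly the same rise of the chains, and the pools changed order between Ciita and H2-Oa. The median gap between the K5-IKKbeta arrays was 0.04 over the 17 probe sets and 0.15 over all probe sets; between the wild type arrays it was 0.13 and 0.12.

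For a comparison with the other genes, each gene was represented by its brightest probe set and tested if that lay above 6.33, the 40th percentile over probe sets. Of the 13074 genes tested, 23.4% were called higher and 10.6% lower, with a median log2 fold change of 0.09. Among the members 8 genes were tested, and H2-Ob fell below the filter. H2-Oa and Ciita passed it through their K5-IKKbeta values alone, with wild type means of 6.11 and 6.07, so a count over the 8 carries no weight of its own. By the size of the rise H2-Aa ranked 70 of 13074, Cd74 98, H2-Eb1 104, H2-DMa 108, H2-Ab1 112 and Ctss 170. Ciita ranked 1328 and H2-Oa 1827. In this fit H2-Oa was called (limma adjusted p = 0.00852) but not without wild type 1 (0.55, adjusted p = 0.0729) or against a 1.2-fold change (adjusted p = 0.0572).

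**Figure D3:**
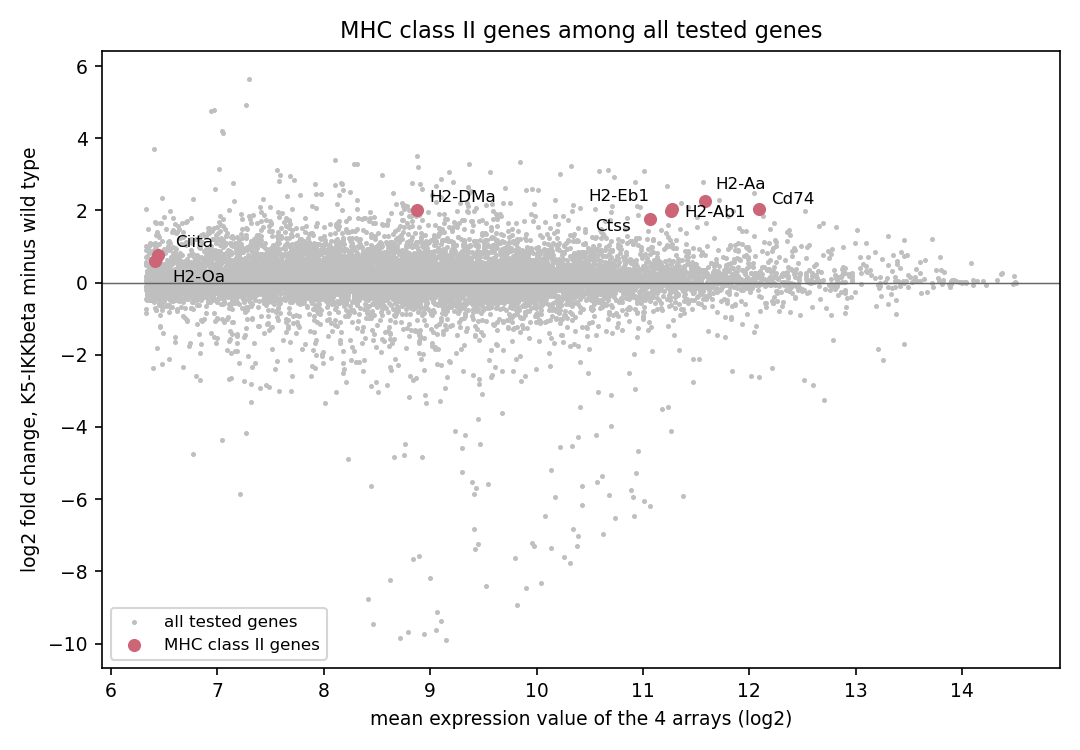
Log2 fold change, K5-IKKbeta minus wild type, against the mean log2 value of the 4 arrays for the 13074 tested genes (grey) and the 8 tested MHC class II genes (red). H2-Aa, H2-Ab1, H2-Eb1, Cd74, Ctss and H2-DMa lie between 1.77 and 2.25, and Ciita and H2-Oa lie at the dim end with 0.76 and 0.60.

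The genes nearest to the mean profile of the tested members, by Euclidean distance of centred log2 values over the 4 arrays, were Papss2, Cyba, Fgd5, Crip1 and Igfals, at distances of 0.02 to 0.07. Papss2, a sulfate-activating enzyme, read 7.57 and 7.58 in wild type and 9.28 and 9.27 in K5-IKKbeta skin. Cyba, a subunit of the phagocyte NADPH oxidase, rose 3.31-fold, from 8.61 and 8.65 to 10.35 and 10.36. The distance rests on 4 arrays and mainly on a shared size of rise, since the mean profile is pulled down by Ciita and H2-Oa.

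Other genes of the pathway were taken from 6 lists, of which 36 genes were tested: 24 rose, 2 fell and 10 did not pass, against 23.4% of all tested genes called higher and 10.6% lower. Their median log2 fold change was 0.58. Of these genes Spib and Cd83 had wild type means of 4.94 and 6.12, under the filter, and were tested only through their K5-IKKbeta values. In the class II region, H2-Ea, the alpha chain of I-E and partner of H2-Eb1, rose 2.37-fold, from 10.30 and 10.38 to 11.50 and 11.66 (limma adjusted p = 0.000517). This is less than the 4.08-fold of H2-Eb1, and the difference was not tested. C57BL/6 mice are known to make no I-E alpha chain because of a promoter deletion, whereas DBA/2 mice make it. As the MHC haplotype is not given, whether it differed between the pools of the genotypes is not known. H2-DMb2, a beta chain of DM, rose 2.11-fold (log2 fold change 1.08, limma adjusted p = 0.00784). Its call was lost with wild type 2 left out, at a log2 fold change of 1.05. The rise was read from a probe set ending in _x_at, so the part of H2-DMb2 in the signal is uncertain. H2-Eb2 read 7.84 and 7.35 in wild type and 7.23 and 7.34 in K5-IKKbeta skin and did not pass (limma adjusted p = 0.221).

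Of 7 tested factors that bind class II promoters, subunits of RFX and NF-Y and the factor CREB, 2 rose and 0 fell, against the 23.4% and 10.6% of all tested genes, and the median log2 fold change was 0.12. Nfya, a DNA-binding subunit of NF-Y, rose 1.36-fold and lost its call without either wild type array (adjusted p = 0.105 and 0.123) and with another quantile normalization (adjusted p = 0.0529). Rfx5, the RFX subunit mutated in a form of bare lymphocyte syndrome, rose 1.34-fold at an adjusted p of 0.0481 in limma, which without wild type 1 became 0.258 and with arrays centred on their median 0.0668. Rfxank and Rfxap, the other RFX subunits, had log2 fold changes of -0.09 and 0.06.

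Of the list for interferon gamma signalling and Ciita, all 11 tested genes rose, against 23.4% of all tested genes called higher. Their median log2 fold change was 0.96, while Ifng fell under the filter. The list also holds factors of immune cell lineages, such as Spib and Irf4, and the inhibitor Socs1, so the count is not one of interferon gamma signalling alone. Spib was tested only through its K5-IKKbeta values. Spib, an Ets factor of B cells, dendritic cells and M cells, lay below the floor in wild type (5.03 and 4.85) and at 9.28 and 9.01 in K5-IKKbeta skin, at least 13.9-fold higher. Irf1, which binds the interferon-responsive promoter of Ciita, read 9.07 and 9.06 against 11.21 and 10.61, a 3.60-fold rise (limma adjusted p = 0.00114). Jak2, a kinase of the interferon gamma receptor, rose 2.51-fold, and the receptor chains Ifngr1 and Ifngr2 rose 1.93-fold and 1.94-fold. Irf4, a lymphoid member of the IRF family, rose 1.26-fold at an adjusted p of 0.0345 in limma, and this call was lost without either wild type array (adjusted p = 0.174 and 0.167) and with the mean of all its probe sets (0.13, adjusted p = 0.366). Socs1, which inhibits the receptor's kinases, lost its call without wild type 1 (adjusted p = 0.0695). Ifng itself was below the floor in all 4 arrays (4.06, 4.11, 4.07 and 4.40) and did not pass (limma adjusted p = 0.542 over all probe sets), so no level of the ligand can be read here.

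The list of endosomal enzymes, which also holds the inhibitor Cst3 among the genes that rose, split. Of 9 tested, 4 rose and 2 fell, against 23.4% and 10.6% of all tested genes, around a median change of 0.32 (log2). Ctsl, cathepsin L, which cuts the invariant chain in thymic epithelium, read 13.30 and 13.34 in wild type and 12.50 and 12.45 in K5-IKKbeta skin, a log2 fold change of -0.84 (limma adjusted p = 0.00131), opposite in sign to Ctss. Ctsb, cathepsin B, had a log2 fold change of -0.60 (limma adjusted p = 0.00589), which missed the threshold when wild type 1 (0.0522) or wild type 2 (0.0514) was left out. Ctsk, a collagen-degrading cathepsin, rose 2.33-fold and Cst3, the inhibitor cystatin C, 1.66-fold. Ifi30, the thiol reductase that opens disulfide bonds of antigens, rose 1.49-fold (limma adjusted p = 0.00533, and 0.053 without wild type 2). Ctsh, an aminopeptidase, rose 1.28-fold at an adjusted p of 0.0479 in limma, which was lost when wild type 1 (0.192), wild type 2 (0.198) or K5-IKKbeta 2 (0.137) was left out. Ctsd and the asparagine endopeptidase Lgmn did not pass, with log2 fold changes of 0.08 and 0.32.

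Of the costimulation list, partners of class II at the cell surface, 4 of 4 tested genes rose, against 23.4% of all tested genes. Cd80, Pdcd1lg2 and Tnfsf4 were below the filter. These 3 did not pass among all probe sets, with log2 fold changes of 0.11 for Cd80, 0.29 for Pdcd1lg2 and 0.03 for Tnfsf4 (limma adjusted p = 0.677, 0.218 and 0.923). Cd274, the ligand PD-L1, read 6.54 and 6.44 in wild type and 8.29 and 7.97 in K5-IKKbeta skin, a 3.12-fold rise, and Cd86, a ligand of CD28, rose 2.32-fold. Icosl, the ligand of ICOS, rose 1.49-fold and lost its call without either wild type array (adjusted p = 0.0768 and 0.0608) and with the mean of all its probe sets (0.22, adjusted p = 0.125). Cd40 rose 1.26-fold at an adjusted p of 0.041 in limma, which did not hold without any 1 of the 4 arrays (adjusted p from 0.0521 to 0.22). Cd83, which protects class II from ubiquitin-driven turnover, rose 2.09-fold, while Marchf8, a ubiquitin ligase of class II, had a log2 fold change of -0.06 (limma adjusted p = 0.676). Marchf1, the ligase of dendritic and B cells, was below the filter and did not pass among all probe sets (0.53, limma adjusted p = 0.0605).

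Markers of the cells that carry class II moved in the same samples, and their part in the members' rise was not tested. The counts of all marker lists below stand against 23.4% of all tested genes called higher and 10.6% lower. All 5 pan-leukocyte genes rose (median log2 fold change 1.96), Laptm5 only through a probe set ending in _x_at (1.62, or 0.28 at an adjusted p of 0.161 with such probe sets left out), and their mean log2 level was 7.92 and 8.07 in wild type against 9.95 and 10.03 in K5-IKKbeta skin. Among them Ptprc, the leukocyte phosphatase CD45, rose 3.89-fold, Coro1a, an actin regulator of leukocytes, 4.63-fold, and Cd52, a small surface protein of leukocytes, 5.35-fold. Of the macrophage list 12 of 12 tested genes rose (median 1.07), of which Aif1, with a wild type mean of 5.59, passed the filter only through its K5-IKKbeta values, with mean levels of 8.50 and 8.46 against 9.62 and 9.77. Mpeg1, a pore-forming protein, rose 3.62-fold, Aif1, an actin-binding protein, 3.53-fold, and the adaptor Tyrobp 3.29-fold. Fcgr1, an immunoglobulin receptor, rose 1.48-fold and Cd68, a lysosomal protein, 1.69-fold. Both lost their calls when wild type 1 (adjusted p = 0.167 for Fcgr1 and 0.101 for Cd68) or wild type 2 (0.161 and 0.0778) was left out, and Fcgr1 also without K5-IKKbeta 2 (0.067).

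Of the dendritic cell list 7 of 10 tested genes rose (median 0.92), with mean levels of 7.07 and 6.92 against 7.87 and 7.99. Itgax, the integrin CD11c, read 6.68 and 6.51 against 8.68 and 8.43, a 3.89-fold rise, and Itgae, the integrin CD103, rose 2.83-fold. Ccl17, a chemokine, had a wild type mean of 6.07 under the filter, and its call was lost when wild type 1 (adjusted p = 0.0641) or wild type 2 (0.138) was left out. Mgl2, a lectin of dermal dendritic cells, rose 2.78-fold and lost its call without wild type 1 (adjusted p = 0.0588). Flt3, Zbtb46 and Batf3, which define dendritic cells more narrowly, did not pass, with log2 fold changes of 0.28, 0.09 and 0.37. Ccr7 and Xcr1 were below the filter. Among all probe sets Ccr7 was called higher, from wild type values near the floor (0.59, limma adjusted p = 0.0219), and Xcr1 did not pass (0.34, limma adjusted p = 0.269). Of the Langerhans cell list only Cd207, langerin, passed among 5 tested genes, with 7.54 and 7.32 in wild type and 9.48 and 8.96 in K5-IKKbeta skin (3.45-fold, limma adjusted p = 0.00112). Epcam and Cdh1, which keratinocytes and follicle cells also make, had log2 fold changes of -0.32 and -0.19.

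B cells carry class II and DO, and 0 of their markers passed. The one tested gene, Cd22, read 6.84 and 6.87 in wild type and 6.96 and 6.72 in K5-IKKbeta skin (limma adjusted p = 0.928). The other 6, Ms4a1, Cd79a, Cd79b, Pax5, Blk and Fcrla, lay below the filter with values of 4.95 to 6.32, and 0 of them were called among all probe sets (lowest limma adjusted p = 0.264). Of the T cell list 4 of 7 tested genes rose, while Cd8b1 and Cd2 fell under the filter and did not pass among all probe sets (limma adjusted p = 0.506 and 0.105). Those that rose were Cd3d at 1.55-fold, lost without wild type 2 (adjusted p = 0.0804), Il7r, an interleukin receptor tested only through its K5-IKKbeta values (wild type mean 6.23), at 3.04-fold, Thy1, also a marker of fibroblasts and nerve, at 2.78-fold and the receptor chain Cd3g at 2.24-fold. Cd4, the coreceptor that binds class II and is also made by some macrophages and dendritic cells, did not pass (log2 fold change -0.13, limma adjusted p = 0.432).

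Markers of keratinocytes, of the basal layer and of the layers above it, were also read, in whole skin and not in isolated cells. Of 9 tested markers 4 rose and 1 fell (median 0.43), against 23.4% and 10.6% of all tested genes. Mean levels were 12.54 and 12.60 in wild type and 12.94 and 12.76 in K5-IKKbeta skin. Krt1, a keratin of the layers above the basal one, rose 3.17-fold and Krt10, its partner, 1.62-fold, while Sfn, the keratinocyte protein 14-3-3 sigma, had a log2 fold change of -1.02 (limma adjusted p = 0.00131). Krt5, whose regulatory elements drive the transgene, rose 1.41-fold (limma adjusted p = 0.025), a call lost without wild type 1, wild type 2 or K5-IKKbeta 1 (adjusted p = 0.085, 0.153 and 0.0568). Krt14, the partner of Krt5, rose 1.44-fold (limma adjusted p = 0.0267), with adjusted p of 0.0935, 0.152 and 0.0541 when the same arrays were left out. Which cells of the skin made the class II RNA cannot be read from these arrays.

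**Figure D4:**
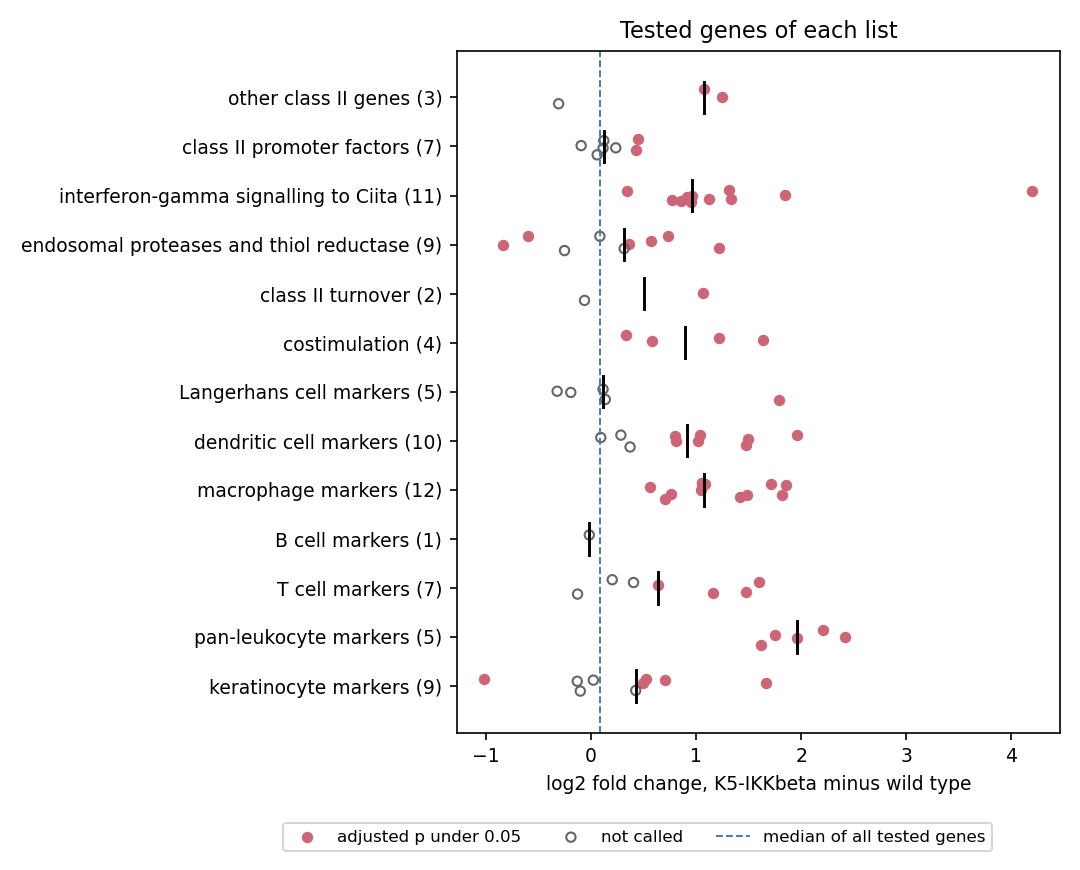
Log2 fold change, K5-IKKbeta minus wild type, of each tested gene by list, with the number tested in brackets; filled points passed an adjusted p of 0.05, open points did not, and black bars are list medians. The dashed line is the median of all tested genes, 0.09, and the pan-leukocyte list has the highest median, 1.96.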

How the data were processed

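Per the submitters' processing notes the deposited values come from RMA, with no version or log base given. RMA corrects background, equalizes arrays by quantiles and summarizes probes. The values, from 2.65 to 14.7, were read as log2 from their range, and the authors' normalization was kept. The software version is not given in the sources used here, and detection calls were not used here. The 4 arrays correlated with r = 0.996 and 0.994 within a genotype and 0.965 to 0.969 between genotypes, across probe sets.

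Probe sets were named from the platform annotation: 34958 had 1 symbol, 932 several and 9211 none, and only the first were named. By gene identifier 34754 matched the RefSeq gene table of GRCm38.p6, and 0 symbols changed. Wild type (n = 2 arrays) and K5-IKKbeta (n = 2) were compared by limma 3.58.1 (R 4.3.3; lmFit, then eBayes; two-sided; group as the only term), with Benjamini-Hochberg adjustment over all 45101 probe sets or all 13074 tested genes. Of 18194 genes, each by its brightest probe set, those above the 40th percentile were tested. Before adjustment 5775 genes had p under 0.05. The number of arrays limits the precision. The p-values rest on the spread between pools of 3 mice, drawn by eBayes towards the spread over all genes or probe sets. Prior degrees of freedom were 4.00 for genes and 4.46 for probe sets, beside 2 residual ones. The procedure was tested on simulated data.

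The members and gene lists were chosen with earlier results of these data known, and the X box letters with the promoters in view. Named genes were all members, up to 3 called genes of each list with the largest change (or the 1 with the smallest p) and the 5 nearest profiles. Other genes of the lists were named after their values were seen. No p-value was adjusted over a list alone.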

Additional observations from a re-analysis of the deposited data

Results flagged for a closer look

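Probe sets that carry the symbols of both H2-DMb1 and H2-DMb2 belong to no member and entered no comparison above, yet their signal in K5-IKKbeta skin lay above that in wild type. Probe set 1418638_at read 6.57 and 6.67 in wild type and 8.42 and 8.39 in K5-IKKbeta skin, with a log2 fold change of 1.78 (limma, adjusted p = 0.000235). Probe set 1449580_s_at read 7.87 and 8.08 against 10.02 and 10.08, with a log2 fold change of 2.08 (limma adjusted p = 0.000189). These probe sets cannot be assigned to either gene. A further probe set, 1422201_at, carries the symbols of H2-Ob and Gm20506. It read 6.39 and 6.45 in wild type and 6.28 and 6.75 in K5-IKKbeta skin, with overlapping groups and a log2 fold change of 0.10 (limma adjusted p = 0.769).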

How the results depend on the processing

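Under 14 alternative settings no member changed direction. The members' calls by gene were kept in 100 results and lost in 6, and those by probe set kept in 141 and lost in 29, 17 of them without moderation. Without moderation 134 genes, 4 members, 0 member probe sets and 0 genes of the pathway lists were called, in place of 4436, 8, 17 and 26, while 16 member probe sets and 22 pathway genes had an unadjusted p under 0.05 in that plain linear model. Against a 1.2-fold change 2348 genes were called. With the filter at the 60th percentile 17 genes of the pathway lists passed, since 26 were tested in place of 36. Leaving out probe sets ending in _s_at, _x_at or _a_at left 5 members, all called. Leaving out 1 array gave 2253 (without wild type 2) to 4640 genes, and 2379 without wild type 1. A fit with 1 array left in a group takes its spread from the other group alone. Without either wild type array calls fell across all genes, so a call lost there does not by itself set a gene apart. The labels number the arrays 1 and 2 in both groups but state no pairing. Over tested genes the gap between the wild type arrays and that between the K5-IKKbeta arrays correlated at 0.253. With the replicate number as a block (replicate block), 4553 genes, 8 members and 17 member probe sets were called. Another quantile normalization gave a median log2 fold change of 0.02 over tested genes in place of 0.09, and of the called genes 59.2% were higher in place of 68.9%. Values near the floor limit what can be said of H2-Ob, Ciita and H2-Oa.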
